A study of Homo sapiens with 6 samples.

Results

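The genes described here are 43 cell cycle genes out of 33496 genes with values in each of 6 RNA-seq libraries. They were chosen by symbol, without a cut on measured values, but with earlier results of these data known. They comprise 24 genes of the G1/S transition and of DNA replication (the G1/S members) and 19 genes that act from G2 to mitosis (the G2/M members). All libraries came from ARPE-19, an established human retinal pigment epithelium (RPE) cell line, and all cultures received erastin at 5 μM for 24 h. Erastin blocks the uptake of cystine, which starves the cell of glutathione and leads to ferroptosis, an iron-dependent death by lipid peroxidation. The Era group (n = 3) received erastin alone, and the Era+VK group (n = 3) was first given vitamin K1 (VK1) at 10 μM for 1 h. Cultures that received no erastin were not analysed here, and each value therefore sets VK1 plus erastin against erastin alone. The study sequenced these cells to look for transcripts that follow VK1 in ferroptosis-damaged RPE, and the comparison made here asks whether the S phase and mitotic genes differed between Era+VK and Era, and whether both phases did so alike. The study describes its results in general as coming from independent experiments, but the sample labels do not tie the libraries to separate cultures. If the libraries of a group shared a culture, p-values measure only the spread between these libraries, which may be technical.

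A dividing cell runs its cell cycle genes in waves. In G1, cyclin D with CDK4 and CDK6, then cyclin E with CDK2, phosphorylate the retinoblastoma protein and release E2F factors, which switch on the genes for licensing origins, for the replication fork and for nucleotide supply. Genes of G2 and mitosis come on later, when the MuvB complex with B-MYB and FOXM1 replaces the repressive DREAM complex at promoters that carry a cell cycle genes homology region (CHR), often downstream of CCAAT boxes bound by NF-Y. The mitotic products enter the spindle, the kinetochore and the checkpoint that holds anaphase until every chromosome is attached. RPE cells of the adult eye rest outside the cycle, whereas ARPE-19 cells divide in culture. In bulk RNA, fewer cells in a phase and less RNA per cell cannot be told apart.

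Values are FPKM (fragments of a gene divided by transcript length and by all mapped fragments). Between 11924 and 12027 genes reached 1 FPKM in a library, and all 43 members passed the minimum for testing, an average of 1 FPKM or more across all 6 libraries, which 11981 genes passed. Depth is unknown, because the values carry no counts. Of 13 RPE markers with values, 8 stayed under 1 FPKM in every library, with RPE65, the visual cycle isomerase, at 0 to 0.02 FPKM, while the RPE transcription factors OTX2 (27.5 to 31.35 FPKM) and MITF (15.49 to 18.59 FPKM) were present throughout. BEST1, of the same RPE markers, was uneven between libraries. It was at 2.65, 0.65 and 56.98 FPKM in Era replicates 1 to 3 and at 36.45, 0.60 and 4.80 FPKM in Era+VK replicates 1 to 3. The cause was not tested. In globin, erythroid, GAGE and MAGE genes, Era+VK replicates 2 and 3 stood apart from the other 4 libraries. Their 10 globin genes summed to 234.9 and 228.3 FPKM, against 0.29 FPKM in Era+VK replicate 1 and 0.24 to 0.61 FPKM in Era, and 9 of the 10 were higher in both, while HBB, the adult beta globin, did not exceed 0.04 FPKM. The red cell factor GATA1 was listed at 2.35 and 2.27 FPKM in these 2 libraries and at 0 in the other 4. Of 23 erythroid genes with values, 15 were higher in both (summed 24.3 and 24.42 FPKM, against 15.56 FPKM in Era+VK replicate 1 and 14.09 to 15.65 FPKM in Era). Of 11 GAGE and MAGE genes with values, 10 were higher in both (20.75 and 17.03 FPKM, against 0.03 FPKM or less elsewhere). The part of these transcripts in the values of the members was not tested, and the class medians, CCND1, MCM5, TOP2A and the further G2/M genes are therefore also given for Era+VK replicate 1. Summed endothelial markers (1.66 to 2.34 FPKM) and leukocyte markers other than CD68 were low in every library. The 13 mitochondrially encoded genes held 13.84% to 16.03% of the FPKM of a library. All had log2 fold changes below 0 (median -0.14), where 36.7% of all genes did. In limma 0 passed the threshold, against 0.618% of all genes. At an unadjusted p under 0.05, 5 of them (38.5%) were lower, against 5.42% of all genes.

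The 2 classes of members differed in the share of promoters with an E2F or a CHR match, while CCAAT boxes were common in both. Promoter windows from the RefSeq table (GRCh38.p14, 250 bases before to 50 bases after the start) matched 35 of the 43 members by symbol. No window was found under the symbols of CCND1, CCNE2, MCM4, MCM5, AURKA, FOXM1, TPX2 and TTK, so these promoters were not searched. Each window was searched on both strands for the CHR (TTTGAA or TTTAAA), the CCAAT box (CCAAT) and the E2F motif (TTTCCCGC, TTTCGCGC, TTTGCCGC or TTTGGCGC, whose matches on opposite strands can overlap). Among members with a window and a match before the start, the stretches shown are those of the 3 with the lowest p for expression in each class. MCM6 was added after the matches were seen because it holds 4 E2F matches. Capitals mark the matches, a CCAAT box on the opposite strand reads ATTGG, and each stretch runs 5′ to 3′ on the strand of its gene and ends at the base before the RefSeq start. The G1/S stretches lie at chr19:29811871-29811990 (plus strand, CCNE1), chr2:10122619-10122738 (plus, RRM2), chr16:85688955-85689074 (minus, GINS2) and chr2:135876444-135876605 (minus, MCM6).
CCNE1: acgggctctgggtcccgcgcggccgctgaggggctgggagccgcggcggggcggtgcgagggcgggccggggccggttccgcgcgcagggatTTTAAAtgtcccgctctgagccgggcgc
RRM2: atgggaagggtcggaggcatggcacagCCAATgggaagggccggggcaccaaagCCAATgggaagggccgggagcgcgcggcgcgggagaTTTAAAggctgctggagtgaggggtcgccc
GINS2: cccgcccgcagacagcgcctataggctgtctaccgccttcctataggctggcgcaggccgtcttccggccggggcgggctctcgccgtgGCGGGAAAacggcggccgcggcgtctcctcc
MCM6: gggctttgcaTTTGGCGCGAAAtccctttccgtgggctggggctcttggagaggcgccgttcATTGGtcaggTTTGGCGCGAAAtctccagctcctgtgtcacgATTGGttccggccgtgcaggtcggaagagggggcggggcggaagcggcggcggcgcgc
The G2/M stretches lie at chr17:40417897-40418100 (minus, TOP2A), chr2:110678064-110678183 (minus, BUB1) and chr10:92593010-92593129 (plus, KIF11).
TOP2A: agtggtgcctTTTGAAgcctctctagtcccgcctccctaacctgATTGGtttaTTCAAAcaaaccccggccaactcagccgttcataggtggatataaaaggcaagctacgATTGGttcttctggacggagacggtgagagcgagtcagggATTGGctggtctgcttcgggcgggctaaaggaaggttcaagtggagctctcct
BUB1: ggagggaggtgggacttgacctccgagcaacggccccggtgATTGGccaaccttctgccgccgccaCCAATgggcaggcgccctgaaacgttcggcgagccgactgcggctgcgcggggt
KIF11: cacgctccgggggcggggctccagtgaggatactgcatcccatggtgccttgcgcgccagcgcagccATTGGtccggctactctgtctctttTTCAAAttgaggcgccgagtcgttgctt

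Of the G1/S stretches, CCNE1 and RRM2 hold 1 CHR match each and 0 E2F matches, and RRM2 also holds 2 CCAAT boxes. GINS2 holds 1 E2F match. In the MCM6 stretch, 2 pairs of E2F matches on opposite strands overlap, with 1 CCAAT box between the pairs and 1 after them. In TOP2A, 2 CHR matches and 3 CCAAT boxes stand in the stretch shown. KIF11 has 1 CCAAT box and 1 CHR match close to the start, while BUB1 has 2 CCAAT boxes and no CHR match in its window. Of the G1/S members with a window, 14 of 20 (70%) held an E2F match, against 5.7% of the 9020 windows of tested genes and 3.33% of all 27305 windows. A CHR match was present in 3 of these 20 (15%), which is close to the 14.8% of tested genes. Of the G2/M members with a window, 12 of 15 (80%) held a CHR match and 1 of 15 (6.67%), CDK1, an E2F match. Both a CHR match and a CCAAT box were found in 10 of these 15 (66.7%), against 6.11% of tested genes. A CCAAT box was found in 13 of 20 G1/S (65%) and 13 of 15 G2/M windows (86.7%), against 37.2% of tested genes. Of 33 windows of the further G1/S and replication genes listed below, 8 (24.2%) held an E2F match. These matches describe letters in a window and show no binding. Over all tested genes with a window, the letters went with little difference in expression between the groups: the median log2 fold change was 0.0357 for 1339 genes with a CHR match and 0.0345 for 7683 without one, and 0.0346 for 514 with an E2F match and 0.0347 for 8508 without one. With both a CHR match and a CCAAT box it was 0.0461 (551 genes), and 0.0339 for the rest. Among G1/S members the median was -0.0251 for 14 with an E2F match and 0.0975 for 6 without one. Among G2/M members it was 0.1022 for 12 with a CHR match and 0.0273 for 3 without one. These splits were not tested.

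**Figure D1:**
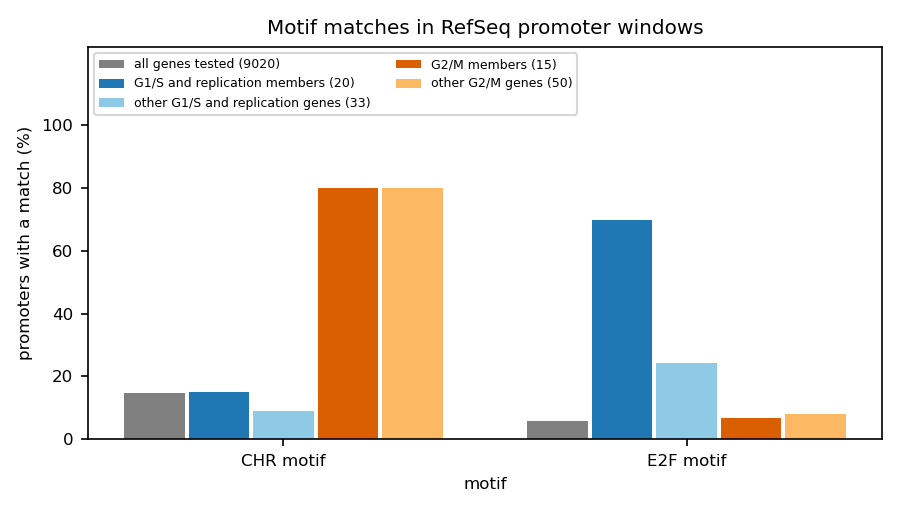
Share of RefSeq promoter windows (percent, vertical axis) with a CHR match (left) or an E2F match (right) among all tested genes, the members and further cell cycle genes, with the number of windows in brackets. CHR matches stand at 80% in both G2/M sets and at 15% or less in the other sets. E2F matches reach 70% in the G1/S members and 24.2% in the further G1/S genes.

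No member passed the threshold between Era+VK and Era. In limma on log2(FPKM + 1), with Benjamini-Hochberg adjustment over all 11981 genes, 0 of 43 members had an adjusted p under 0.05, where the share of all genes was 0.618% (74 genes; 16 or 0.134% higher and 58 or 0.484% lower in Era+VK). At an unadjusted p under 0.05 the count was 8 of 43 members (18.6%), against 15.8% of all genes. Log2 fold changes ran from -0.42 (CCND1, cyclin D1) to 0.25 (CCNE1, cyclin E1). The G2/M members had a median of 0.09 on the log2 fold change scale, with 19 of 19 values above 0. That count was 18 after quantile normalization and 18 without Era replicate 2. It was 16 without Era+VK replicate 2, 17 without Era+VK replicate 3 and 11 for Era+VK replicate 1 alone. The G1/S members had a median of -0.03 with 10 values above and 14 below 0. The median of all tested genes was 0.03, and 63.3% of them had a value above 0 and 36.7% below. Members share libraries and are not independent of each other, so these counts carry no test, and AURKB, at 0.0012, sat almost at 0.

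**Figure D2:**
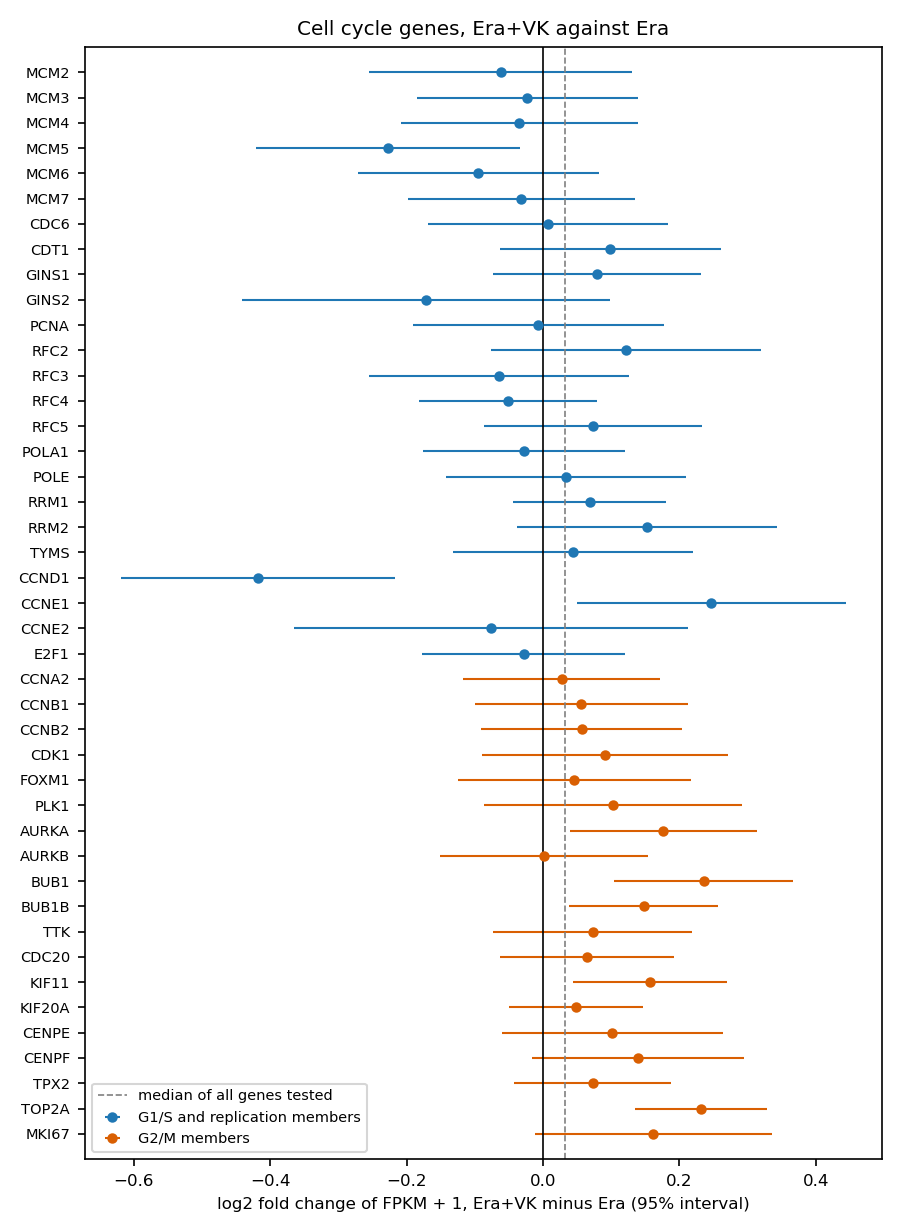
Log2 fold change of FPKM + 1 (horizontal axis, Era+VK minus Era) of the 43 members, with points for the estimate and bars for its 95% interval from limma, blue for G1/S and orange for G2/M members, and a dashed line at the median of all tested genes (0.03). Most intervals include 0, with CCND1 (-0.42) and MCM5 (-0.23) to the left of it and CCNE1, AURKA, BUB1, BUB1B, KIF11 and TOP2A to the right.

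Among the licensing and helicase genes, 7 of 10 log2 fold changes were below 0 and the median was -0.03. MCM2 to MCM7 form the ring-shaped helicase that is loaded on origins and unwinds DNA at the fork. MCM7 (chromosome 7, 100092728 to 100101940, GRCh38), the most abundant of the 10, was at 50.02, 51.80 and 47.06 FPKM in Era replicates 1 to 3 and at 43.68, 52.23 and 49.95 FPKM in Era+VK replicates 1 to 3. These groups overlapped, with the lowest and the highest value both in Era+VK, and the log2 fold change was -0.03 (95% interval -0.20 to 0.13). MCM5 (chromosome 22, 35400063 to 35425430) was at 20.20, 20.65 and 18.14 FPKM in Era and at 14.62, 17.64 and 17.81 FPKM in Era+VK. Every Era+VK library lay below every Era library here, with means of 19.7 ± 1.34 and 16.7 ± 1.79 FPKM (SD, n = 3), although the groups came within 0.33 FPKM of each other at their nearest values. The log2 fold change of MCM5 was -0.23 (SE 0.08, limma adjusted p = 0.254). It was -0.14 without Era+VK replicate 1 and -0.40 for that library alone. Groups that do not overlap in this downward direction were found in 7.04% of all genes and in 2 of the 24 G1/S members, MCM5 and CCND1.

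The other helicase subunits differed less. MCM2, MCM3, MCM4 and MCM6 had log2 fold changes of -0.06, -0.02, -0.03 and -0.09. All 6 MCM genes had their lowest value of the 6 libraries in Era+VK replicate 1, and 5 of the 6 had their highest in Era replicate 2. CDC6 and CDT1, which load the helicase on origins, were at 0.01 and 0.10. GINS1 and GINS2, subunits of the complex that activates it, stood at 0.08 and -0.17. GINS1, the lowest of the G1/S members at a mean of 2.41 FPKM, was the 1 G1/S member whose Era+VK libraries (2.37 to 2.78 FPKM) all lay above the Era libraries (2.27 to 2.36 FPKM), by 0.01 FPKM at the nearest, where 15.1% of all genes did.

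The median log2 fold change of the fork and polymerase genes was -0.01, with 3 of 7 values above 0. PCNA (chromosome 20, 5114953 to 5126626), the sliding clamp that tethers the polymerases, was the most abundant of the 43 members. It was at 178.25, 182.53 and 172.37 FPKM in Era and at 156.59, 195.42 and 180.71 FPKM in Era+VK. The means were 177.7 ± 5.10 and 177.6 ± 19.6 FPKM (SD, n = 3), so the libraries of Era+VK spread on both sides of Era, and the log2 fold change was -0.01 (95% interval -0.19 to 0.18). RFC2, a subunit of the clamp loader, was at 21.85, 20.75 and 19.55 FPKM in Era and at 20.01, 25.48 and 22.65 FPKM in Era+VK. Its log2 fold change of 0.12 (95% interval -0.08 to 0.32, adjusted p = 0.524) rested on replicates 2 and 3, while replicate 1 lay within the range of Era. The other clamp loader subunits RFC3, RFC4 and RFC5 had log2 fold changes of -0.06, -0.05 and 0.07, and the polymerase subunits POLA1 and POLE of -0.03 and 0.03.

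All 3 nucleotide supply genes were higher in the mean of Era+VK, with overlapping groups. TYMS, thymidylate synthase, was at 69.99, 70.43 and 66.25 FPKM in Era and at 63.10, 77.79 and 73.00 FPKM in Era+VK. RRM2, the ribonucleotide reductase subunit that is made in S phase, was at 20.13, 20.08 and 18.35 FPKM in Era and at 19.06, 23.43 and 23.15 FPKM in Era+VK. In both genes Era+VK replicates 2 and 3 lay above every Era library and replicate 1 did not. The log2 fold changes were 0.04 (TYMS), 0.15 (RRM2, adjusted p = 0.411) and 0.07 (RRM1, the large subunit of the reductase).

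The regulators of the G1/S transition held both the lowest and the highest log2 fold change of the 43 members. CCND1 (chromosome 11, 69641087 to 69654474) encodes cyclin D1, the partner of CDK4 and CDK6 that couples growth signals to the cycle. It was at 88.51, 105.10 and 87.02 FPKM in Era and at 63.31, 72.52 and 73.08 FPKM in Era+VK. Every Era+VK library lay below every Era library, and the means were 93.5 ± 10.04 and 69.6 ± 5.49 FPKM (SD, n = 3), a ratio of 0.744. In limma the log2 fold change was -0.42 (SE 0.09, 95% interval -0.62 to -0.22), and the adjusted p of 0.0877 missed the threshold. Leaving out any 1 library gave -0.47 to -0.33, and Era+VK replicate 1 alone gave -0.55. The exact permutation test of this gene over the 6 libraries gave p = 0.1 (two-sided), the smallest value that 3 against 3 libraries allow.

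The E cyclins, which drive entry into S phase with CDK2, had values on opposite sides of 0, neither past the threshold. CCNE1 was at 5.19, 6.50 and 5.72 FPKM in Era and at 6.49, 7.72 and 6.98 FPKM in Era+VK. The groups overlapped by 0.01 FPKM, between Era replicate 2 and Era+VK replicate 1, and the log2 fold change was 0.25 (SE 0.09, adjusted p = 0.229). CCNE2 had a log2 fold change of -0.08 with a wide interval (-0.37 to 0.21). E2F1, the transcription factor that activates many G1/S genes, was at 20.68, 18.73 and 18.87 FPKM in Era and at 17.97, 18.53 and 20.64 FPKM in Era+VK. The groups overlapped for E2F1, with a log2 fold change of -0.03 (95% interval -0.18 to 0.12).

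**Figure D3:**
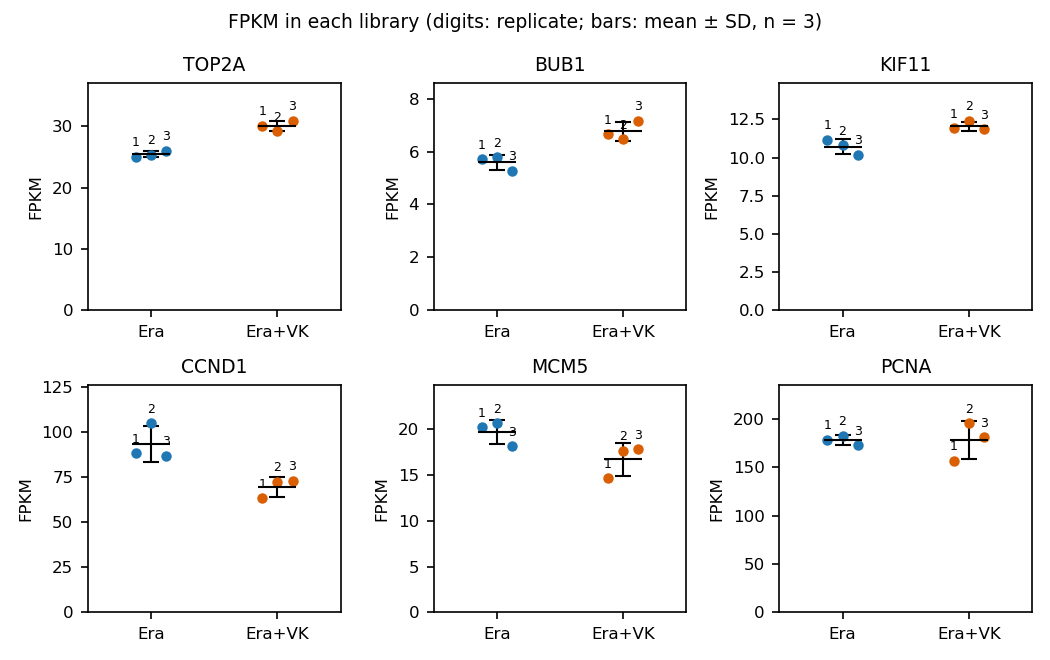
FPKM (vertical axes, from 0) of 6 members in each library, with digits for the replicate and bars for the mean ± SD (n = 3). The groups do not overlap for TOP2A, BUB1 and KIF11 (higher in Era+VK) or for CCND1 and MCM5 (lower), and PCNA spreads from 156.59 to 195.42 FPKM within Era+VK.

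Of the 4 role groups of mitotic members, the cyclins with CDK1 and FOXM1 had the smallest median log2 fold change (0.06). CDK1, the kinase that drives entry into mitosis, was at 15.45, 14.39 and 14.24 FPKM in Era and at 14.02, 17.51 and 15.77 FPKM in Era+VK. CCNA2, its cyclin A partner, was at 22.68, 22.14 and 21.85 FPKM in Era and at 20.61, 24.27 and 23.27 FPKM in Era+VK. For both genes the lowest value of the 6 libraries was in Era+VK replicate 1 and the 2 highest were in replicates 2 and 3. FOXM1, the transcription factor of the G2/M wave, was at 16.67, 17.50 and 19.23 FPKM in Era and at 17.58, 17.43 and 20.25 FPKM in Era+VK, which overlapped. The log2 fold changes were 0.09 (CDK1), 0.03 (CCNA2) and 0.05 (FOXM1), and CCNB1 and CCNB2, the B cyclins that complete the mitotic kinase, both had 0.06. The lowest adjusted p in this role group was 0.607.

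Among the 7 members for mitotic kinases, the spindle checkpoint and CDC20, groups did not overlap for 3 (42.9%), all higher in Era+VK. The share of all genes in that direction was 15.1%. BUB1 (chromosome 2, 110637698 to 110678114), a checkpoint kinase at the kinetochore, was at 5.71, 5.79 and 5.27 FPKM in Era and at 6.65, 6.47 and 7.16 FPKM in Era+VK. All 3 Era+VK libraries exceeded all Era libraries, with means of 5.59 ± 0.28 and 6.76 ± 0.36 FPKM (SD, n = 3). The log2 fold change was 0.24 (SE 0.06, 95% interval 0.10 to 0.37), with an adjusted p of 0.124 in limma. BUB1B, which encodes the checkpoint protein BUBR1, was at 5.10, 4.87 and 4.84 FPKM in Era and at 5.48, 5.71 and 5.54 FPKM in Era+VK (log2 fold change 0.15, adjusted p = 0.204). AURKA, the kinase that matures centrosomes and the spindle, ran from 6.80 to 7.37 FPKM in Era and from 7.55 to 8.57 FPKM in Era+VK (log2 fold change 0.18, adjusted p = 0.218). CDC20, which activates the anaphase-promoting complex, was at 12.50, 13.19 and 13.16 FPKM in Era and at 12.92, 14.57 and 13.32 FPKM in Era+VK. CDC20 overlapped between the groups (log2 fold change 0.06), and PLK1 (0.10), TTK (0.07) and AURKB (0.0012), kinases of spindle assembly, of the checkpoint and of the chromosomal passenger complex, did so too.

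All 5 spindle and kinetochore genes had log2 fold changes above 0. KIF11 (chromosome 10, 92593286 to 92655395), the motor that pushes the spindle poles apart, was at 11.17, 10.80 and 10.20 FPKM in Era and at 11.92, 12.41 and 11.86 FPKM in Era+VK. These groups did not overlap, and the means of 10.7 ± 0.49 and 12.1 ± 0.30 FPKM (SD, n = 3) gave a log2 fold change of 0.16 (SE 0.05, adjusted p = 0.197). TPX2, a spindle assembly factor and activator of aurora A, was at 26.18, 27.07 and 26.76 FPKM in Era and at 26.49, 29.53 and 28.39 FPKM in Era+VK. TPX2 overlapped through replicate 1, with a log2 fold change of 0.07 (95% interval -0.04 to 0.19). KIF20A, a motor of the central spindle, did not overlap (7.82 to 8.04 FPKM in Era, 8.16 to 8.38 FPKM in Era+VK), although its log2 fold change was only 0.05 (adjusted p = 0.611). CENPE and CENPF, which link kinetochores to microtubules, had log2 fold changes of 0.10 and 0.14.

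TOP2A had the lowest p of the 43 members. This gene (chromosome 17, 40388516 to 40417950) encodes the topoisomerase that untangles sister chromatids before they part. It was at 25.04, 25.38 and 26.04 FPKM in Era and at 30.13, 29.26 and 30.91 FPKM in Era+VK. The 2 groups were 3.22 FPKM apart at their nearest values, with means of 25.5 ± 0.51 and 30.1 ± 0.83 FPKM (SD, n = 3), a ratio of 1.18. The log2 fold change was 0.23 (SE 0.04, 95% interval 0.14 to 0.33), and the adjusted p of 0.0628 missed the threshold. Leaving out any 1 library gave 0.21 to 0.25, and Era+VK replicate 1 alone, where the globin genes were at the level of Era, gave 0.23. MKI67, the proliferation antigen Ki-67 that coats mitotic chromosomes, ran from 16.69 to 17.86 FPKM in Era and from 17.79 to 21.90 FPKM in Era+VK (log2 fold change 0.16, adjusted p = 0.345). Across all G2/M members, 6 of 19 (31.6%) did not overlap and were higher in Era+VK (TOP2A, BUB1, BUB1B, AURKA, KIF11 and KIF20A), where the share of all genes was 15.1%. In the lower direction 0 of 19 did so, against 7.04% of all genes. At an unadjusted p under 0.05, 5 of 19 were higher and 0 lower, against 10.4% and 5.42% of all genes, while the G1/S members had 1 higher and 2 lower of 24.

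The libraries of Era+VK were not alike in these genes. The median deviation of the G1/S members from the mean of Era, on the log2(FPKM + 1) scale, was -0.15, 0.057 and 0.044 in Era+VK replicates 1 to 3, against 0.0065, 0.066 and -0.081 in Era replicates 1 to 3. Of the 24 G1/S members, 18 (75%) had their lowest value of all 6 libraries in Era+VK replicate 1, a place that 16.7% of all genes had there. Without that library 19 of the 24 were higher in Era+VK, with a median of 0.042, near the 0.037 of all tested genes. Without Era replicate 2 the G1/S median was 0.016, below the 0.031 of all tested genes. The sign of the G1/S median therefore rested on these 2 libraries. The median deviation of the G2/M members was 0.014, 0.12 and 0.14 in Era+VK replicates 1 to 3, against 0.011, 0.0076 and 0.0048 in Era. For all tested genes it was 0.026, 0.033 and 0.038 in Era+VK, so the G2/M median of replicate 1 lay below that of all genes. Above every Era library lay 9 of 19 G2/M members in replicate 1 (47.4%, against 38.1% of all genes), 11 in replicate 2 (57.9%, against 40.6%) and 17 in replicate 3 (89.5%, against 41.5%). The globin, erythroid, GAGE and MAGE transcripts were high in the same replicates 2 and 3, and their part in the higher medians there was not tested. Globin genes held no more than 0.0999% of the FPKM of a library, a share that counts these genes only and no other transcripts that may have come with them. In replicate 1, 11 of 19 G2/M members were above the mean of Era, where the median of all tested genes was above it too (0.026). The 9 members above all 3 Era libraries in replicate 1 were TOP2A, BUB1, BUB1B, KIF11, KIF20A, AURKA, CENPE, CENPF and MKI67.

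**Figure D4:**
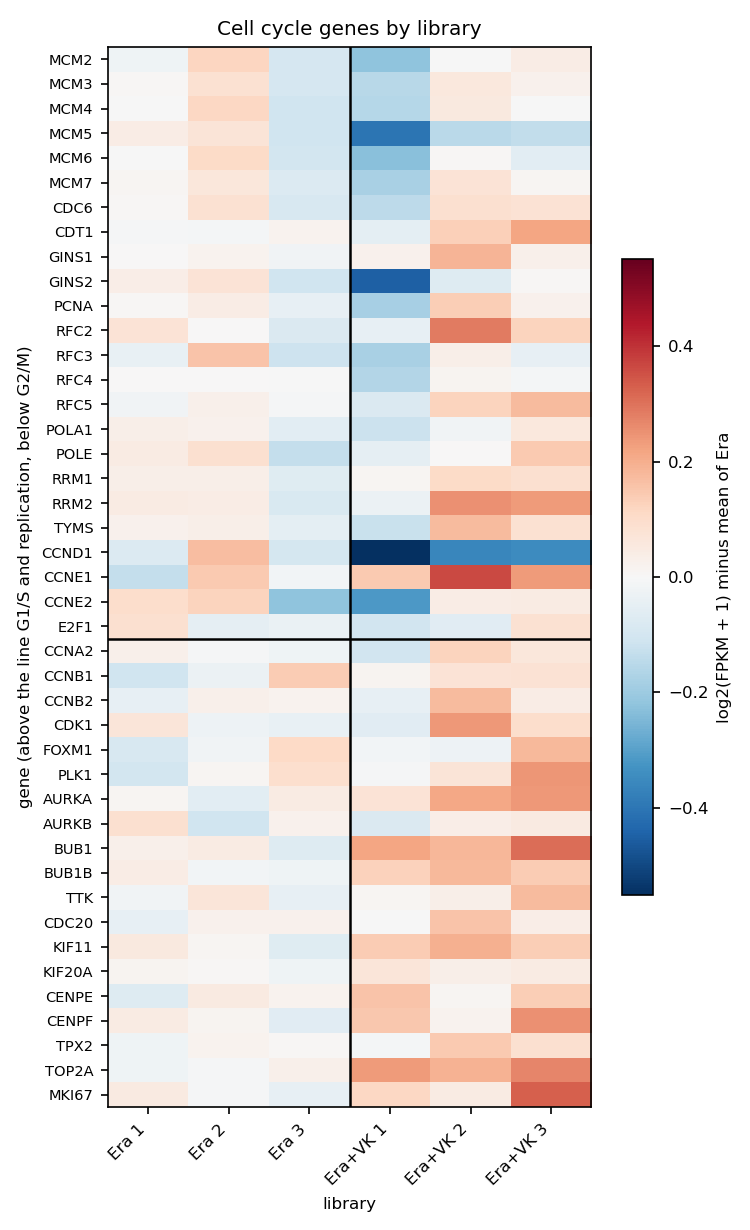
Difference of log2(FPKM + 1) from the mean of Era (colour, blue lower and red higher) for each member (rows, G1/S above the line and G2/M below it) in each library (columns). The column of Era+VK replicate 1 is blue in most G1/S rows and red in TOP2A, BUB1 and KIF11, and CCND1 is blue in all 3 Era+VK columns.

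Set against each other within a library, the G2/M median minus the G1/S median was 0.0041, -0.058 and 0.086 in Era replicates 1 to 3 and 0.16, 0.065 and 0.093 in Era+VK replicates 1 to 3. The groups overlapped, since Era replicate 3 lay above Era+VK replicate 2. The same difference for further genes of both phases, listed below, was -0.011, -0.0092 and 0.046 in Era and 0.15, 0.050 and 0.11 in Era+VK, which did not overlap, with Era replicate 3 and Era+VK replicate 2 only 0.0046 apart.

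Other cell cycle genes were counted in the same way. Of 137 further genes in 5 lists, 133 passed the minimum and 0 passed the threshold in limma, where the share of all genes was 0.618%. At an unadjusted p under 0.05 the count was 22 of 133 (16.5%; 21 higher and 1 lower), close to the 15.8% of all genes. Of 38 further G1/S and replication genes (origin recognition, primase, polymerase, histone chaperone and nucleotide genes), 22 were higher and 16 lower in Era+VK, with a median log2 fold change of 0.01 and 0 at an unadjusted p under 0.05. Their values ran from -0.16 (TIPIN, a fork protection factor) to 0.11 (GMNN, geminin, the inhibitor of relicensing). Of 59 tested genes among 60 further G2/M genes, 50 were higher and 9 lower, where 63.3% of all genes were higher, and the median was 0.12. At an unadjusted p under 0.05, 17 were higher and 1 lower, against 10.4% and 5.42% of all genes. Measured from the mean of Era, their median was 0.060 for Era+VK replicate 1, and 0.13 and 0.15 in replicates 2 and 3, which held the globin and GAGE transcripts, against -0.014, 0.039 and -0.015 in Era. Groups did not overlap for 19 of them in the higher direction (32.2%, against 15.1% of all genes). In the lower direction this held for 2 of the 59, against 7.04% of all genes.

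The extremes of the further G2/M genes both had an adjusted p of 0.0552. SPC24, a subunit of the NDC80 complex that grips microtubules at the kinetochore, was at 4.36, 4.90 and 4.52 FPKM in Era and at 5.73, 6.28 and 6.27 FPKM in Era+VK (log2 fold change 0.34, SE 0.06). SMC2, a core subunit of the condensins that compact mitotic chromosomes, was at 24.70, 26.07 and 24.76 FPKM in Era and at 19.66, 20.74 and 21.45 FPKM in Era+VK (log2 fold change -0.28, SE 0.05). Neither gene overlapped between the groups, and they lay on opposite sides. Both passed the threshold when genes had to reach 1 FPKM in every library, and SMC2 did so after quantile normalization.

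Among the brakes of the cycle, CDKN1A, the CDK inhibitor p21 that is induced by p53, was at 137.84, 130.65 and 135.77 FPKM in Era and at 121.06, 134.03 and 128.29 FPKM in Era+VK. Its groups overlapped (log2 fold change -0.08, 95% interval -0.20 to 0.04). CDKN2C, which encodes the inhibitor p18 of CDK4 and CDK6, was at 10.80, 10.48 and 9.58 FPKM in Era and at 12.10, 13.84 and 12.55 FPKM in Era+VK, which did not overlap (log2 fold change 0.29, SE 0.07, adjusted p = 0.103). CDKN2B, the related inhibitor p15, had the lowest log2 fold change of the 6 tested inhibitors at -0.16, and CDKN1C, the inhibitor p57, stayed at 0.18 FPKM or less. In the RB, E2F and MuvB list, 17 of 18 genes were tested, 10 higher and 7 lower, from -0.11 (E2F7, a repressor of E2F targets) to 0.17 (TFDP2, a dimerization partner of E2F factors). In the list of G1 cyclins, CDKs and their regulators, 13 of 14 were tested, with CCND3, cyclin D3, highest and CDK4 lowest. CCND3 was at 6.69, 7.12 and 6.96 FPKM in Era and at 8.15, 8.34 and 9.36 FPKM in Era+VK, for a log2 fold change of 0.28 (SE 0.06, adjusted p = 0.0941). The values of cyclin D3 lay higher in every Era+VK library and those of cyclin D1 lower in every one, and the difference between these 2 cyclins was not tested. CDK4, their kinase partner, ran from 51.52 to 52.78 FPKM in Era and from 42.19 to 52.29 FPKM in Era+VK (log2 fold change -0.15).

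**Figure D5:**
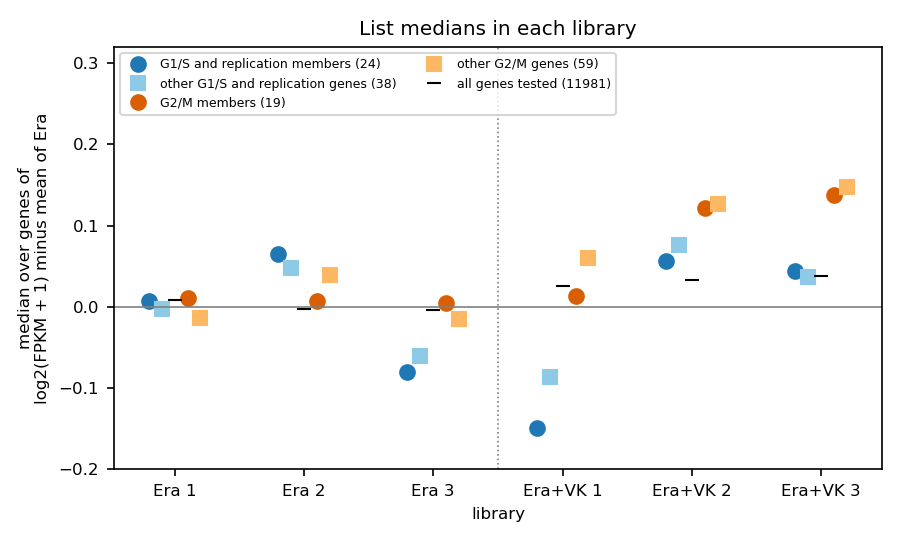
Median difference of log2(FPKM + 1) from the mean of Era (vertical axis) in each library (horizontal axis), for members (circles) and further genes (squares) of G1/S (blue) and G2/M (orange), with dashes for all tested genes. Era+VK replicate 1 has the lowest G1/S median (-0.15), and the G2/M medians of Era+VK replicates 2 and 3 (0.12 and 0.14) lie above all genes (0.033 and 0.038). In Era+VK replicate 1 the median of the G2/M members (0.014) lies below all genes (0.026) and that of the further G2/M genes (0.060) above.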

How the data were processed

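RNA-seq of 6 libraries was analysed. The authors deposited FPKM values with 2 decimals for each gene and library. The submitters' processing notes name cutadapt, HISAT2 and StringTie 2.1.6, and the mouse build mm10, while the gene identifiers are human Ensembl identifiers; the annotation is not given in the sources used here. The cell line tag of the labels counts upwards from ARPE-19, while each title names ARPE-19, and all 6 were taken as ARPE-19. These FPKM depend on everything else mapped in the same library. No steps of whole reads were seen in low values of single-exon genes. Rounding to 2 decimals and transcript lengths from another annotation could hide such steps. Depth is therefore unknown, counting errors cannot be given and no count model was used.

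The test was limma 3.58.1 in R 4.3.3 on log2(FPKM + 1), with a mean-variance trend and no block, for Era+VK minus Era over the 11981 genes that averaged 1 FPKM or more, with Benjamini-Hochberg adjustment over all of these and a threshold of 0.05. Fold changes on this scale understate those of low genes. Intervals are 95% intervals of that fit. Positions are from GENCODE 29 (GRCh38), matched by identifier for 43 of 43 members, and promoters are the first RefSeq window of each symbol. The start of GENCODE lies before the RefSeq start for CCNE1, RRM2, GINS2, TOP2A and BUB1.

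Values in all libraries are given for 17 members: in each of 8 role groups the most abundant and the one with the largest absolute log2 fold change, the 5 with the lowest p, and E2F1, FOXM1 and CCND1.  Of the pathway lists, CDKN1A and the extremes of each list are named. CCNE1, GINS1, AURKA, KIF20A and MKI67 were given FPKM after their values were seen. Members and lists were chosen with earlier results of these data known.

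Alternatives were a pseudocount of 0.1, no filter, quantile normalization, 1 FPKM required in each library, rescaling without mitochondrially encoded genes, the replicate number as a block, Era+VK replicate 1 alone, and each library left out in turn.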

Additional observations from a re-analysis of the deposited data

How the results depend on the processing

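No member passed the threshold in any of these alternatives. Of all genes, 74 passed as reported (16 higher, 58 lower). The count was 1 with no filter, 122 with 1 FPKM in every library (33 higher, 89 lower), 112 after quantile normalization (16 higher, 96 lower), 35 for Era+VK replicate 1 alone (6 higher, 29 lower) and 2 to 70 with 1 library left out, with 2, 2 and 5 without Era replicates 1, 2 and 3, 42 without Era+VK replicate 3, and 30 higher against 40 lower without Era+VK replicate 1. Further cell cycle genes past the threshold went from 0 to 2 with 1 FPKM in every library (SPC24 and SMC2) and to 1 after quantile normalization (SMC2). For Era+VK replicate 1 alone, where the lone library is assumed to vary like the others, the median was -0.15 for G1/S and 0.014 for G2/M members. The median of all tested genes was 0.026 there. Of the 17 members given in all libraries, the log2 fold changes that turned there were CCNA2 (-0.10), CDC20 (-0.0027), CDK1 (-0.062), FOXM1 (-0.015), RFC2 (-0.046), RRM2 (-0.031), TPX2 (-0.0093) and TYMS (-0.12). Of the other 26 members, CCNB2 (-0.046), PLK1 (-0.0081), AURKB (-0.082), CDT1 (-0.053), RFC5 (-0.078), POLE (-0.049) and CDC6 (-0.15) also lay below the mean of Era in that library and above it over the group. PCNA was 0.044 after quantile normalization, where 18 of 19 G2/M and 9 of 24 G1/S members were above 0. With 1 library left out, CCNA2 ran from -0.020 to 0.093, E2F1 from -0.084 to 0.016, FOXM1 from -0.021 to 0.10, MCM7 from -0.084 to 0.042, PCNA from -0.078 to 0.080 and TYMS from -0.021 to 0.13, while MCM5 (-0.28 to -0.14), CDK1 (0.017 to 0.17), CDC20 (0.018 to 0.099), RFC2 (0.039 to 0.21), RRM2 (0.10 to 0.24) and TPX2 (0.039 to 0.11) kept their direction. The G1/S median then ran from -0.050 to 0.042 and the G2/M median from 0.063 to 0.11. The adjusted p over all alternatives was at least 0.0508 for TOP2A and 0.0615 for CCND1. The cause of these shifts was not tested.

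With the replicate number as a block the count was 42 genes (5 higher, 37 lower) and 0 members. Deviations of libraries with the same number correlated at 0.071, 0.10 and 0.021 across genes, and those with other numbers at -0.11 to 0.040. Era replicates 1 and 2 correlated best with their own number, and Era replicate 3 with Era+VK replicate 1 (0.040). The same-numbered values were not all over 0.1, so the numbers were not taken as pairs. These correlations do not exclude a pairing. The unknown depth limits what can be said of members near 2 FPKM.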
